A study of Homo sapiens with 24 samples.

Results

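The 35 genes described here encode resident proteins of the lysosome: the proteins of its limiting membrane, and the soluble proteases, glycosidases, sulfatases, lipid hydrolases and binding proteins of its lumen. They were taken from a list of gene symbols, which were mapped to the Ensembl identifiers of the expression table without use of any measured value. Of the 35 listed genes, 33 were found among the 12285 genes of the table. LGMN and LIPA were not analysed here. All 33 passed the filter of a mean of at least 1 FPKM (fragments scaled to transcript length and to library size), as did 12253 genes in all. The samples were 24 RNA-seq libraries from K562, an established human chronic myelogenous leukaemia line with erythroid features, grown in RPMI with 10% bovine calf serum and antibiotics. A synchronous population was obtained by centrifugal elutriation, which separates cells by size and thereby by cell-cycle stage, and 1 library was made every 2 h from 0 h to 46 h. There was no treatment, no control culture and no replicate, so time was the only variable.

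Lysosomes degrade macromolecules delivered by endocytosis and autophagy, and their acid interior is kept by the vacuolar ATPase. Most of their soluble enzymes receive mannose 6-phosphate tags in the Golgi and are carried by mannose 6-phosphate receptors, whereas the membrane proteins follow sorting signals in their tails. Transcription factors of the MiT/TFE family (TFEB, TFE3 and MITF) bind an E-box with flanking bases, the CLEAR element, near the start of many lysosomal genes.

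That element can be read directly in the promoter windows of some members. Of the 35 listed genes, 25 had an entry in the RefSeq promoter table (GRCh38.p14), which covers 250 bases before to 50 bases after each transcription start. The letters TCACGTGA, which read the same on both strands and contain the shorter E-box CACGTG, were present in the windows of 5 members (LAMP1, CLN3, GAA, MCOLN1 and CTSA) and in 0.98% of the 35116 windows of all genes. CACGTG was present in 8 members, the same 5 with NEU1, CTSD and CD63, and in 7.26% of all windows. Members are counted here by gene, with 36 windows for the 25 genes, and the background by window, so these shares differ in unit. The last 90 bases before the start are printed for the 4 members with a whole TCACGTGA within them, to show how near to the start the element lies. All 4 are on the plus strand, 5′ to 3′, with TCACGTGA in capitals.
LAMP1, chr13:113297149-113297238: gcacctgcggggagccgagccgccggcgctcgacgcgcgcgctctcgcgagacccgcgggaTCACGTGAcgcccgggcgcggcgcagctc
MCOLN1, chr19:7522534-7522623: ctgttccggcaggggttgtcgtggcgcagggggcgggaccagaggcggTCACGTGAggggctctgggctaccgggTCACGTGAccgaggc
GAA, chr17:80101491-80101580: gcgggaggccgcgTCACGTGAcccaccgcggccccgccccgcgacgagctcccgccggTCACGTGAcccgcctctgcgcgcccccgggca
CTSA, chr20:45891245-45891334: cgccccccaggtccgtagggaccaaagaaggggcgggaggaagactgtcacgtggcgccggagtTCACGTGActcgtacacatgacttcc
The element began 29 bases before the start in LAMP1 and 26 in CTSA. LAMP1 carried a second that began 2 bases before the start and ran past it. MCOLN1 and GAA each carried a pair, at 42 and 15 bases and at 77 and 32 bases before the start. A match is a description of letters and not of binding.

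Levels differed between members widely on the FPKM scale, which is per length. Across the 24 libraries 3 members had a mean of at least 100 FPKM, 19 had 10 to 100 FPKM and 11 were below 10 FPKM. The median of the member means was 29.4 FPKM, against 13.8 FPKM over all genes tested. No member was at 0 in any library.

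CD63, a tetraspanin of late endosomes and lysosomes, was the highest, with a mean of 233.6 ± 28.6 FPKM (SD over 24 libraries). It ranged from 181.3 FPKM at 18 h to 313.2 FPKM at 32 h, with a median of 231.2 FPKM. PSAP, the precursor of the saposins that present sphingolipids to their hydrolases, followed with 219.8 ± 27.6 FPKM (SD, n = 24). Its values ran from 180.5 FPKM at 18 h through a median of 213.4 FPKM to 276.0 FPKM at 46 h. The means of CD63 and PSAP differed by less than the SD of either gene. CTSC, cathepsin C, a dipeptidyl peptidase that activates granule serine proteases, came next with 127.6 ± 8.73 FPKM (SD, n = 24; lowest 108.6, median 127.8, highest 143.3 FPKM), below every value of CD63 and PSAP.

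At the other end GAA, the acid glucosidase that degrades glycogen, had a mean of 1.05 ± 0.355 FPKM (SD, n = 24), with a lowest value of 0.197 FPKM at 18 h, a median of 1.03 FPKM and a highest of 1.67 FPKM. SGSH, the sulfamidase of heparan sulfate, had 3.02 ± 0.705 FPKM (SD, n = 24), from 1.75 FPKM through a median of 3.12 FPKM to 4.30 FPKM. ARSA, arylsulfatase A, which acts on sulfatide, had 4.44 ± 0.966 FPKM (SD, n = 24), from 1.47 FPKM at 16 h through a median of 4.76 FPKM to 5.61 FPKM. GAA lay below SGSH in all libraries (its highest value was under the lowest of SGSH), whereas the ranges of SGSH and ARSA overlapped.

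By class, the 7 membrane proteins had means from 8.01 FPKM (MCOLN1, a lysosomal calcium channel) to 233.6 FPKM (CD63), and the 7 proteases from 30.6 FPKM (CTSA, the protective protein that stabilises NEU1 and GLB1) to 127.6 FPKM (CTSC). The 10 glycosidases ran from 1.05 FPKM (GAA) to 47.4 FPKM (GUSB, beta-glucuronidase). The 3 sulfatases were all low, at 3.02 to 5.59 FPKM, and the 3 lipid hydrolases ran from 5.43 FPKM (SMPD1, acid sphingomyelinase) to 85.0 FPKM (PPT1, palmitoyl-protein thioesterase). The summed FPKM of the 33 members was between 1277 FPKM at 0 h and 1623 FPKM at 32 h, or 0.244% (18 h) to 0.329% (46 h) of all FPKM in a library.

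Most members kept a level close to their own median. The median coefficient of variation of the members was 14.8% over 24 libraries and 11% without 16 h and 18 h, against 19.8% and 14.2% for all genes tested. Without those time points it was lowest for HEXA, the alpha subunit of beta-hexosaminidase, at 4.36%, and highest for GAA, at 25.5%.

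**Figure D1:**
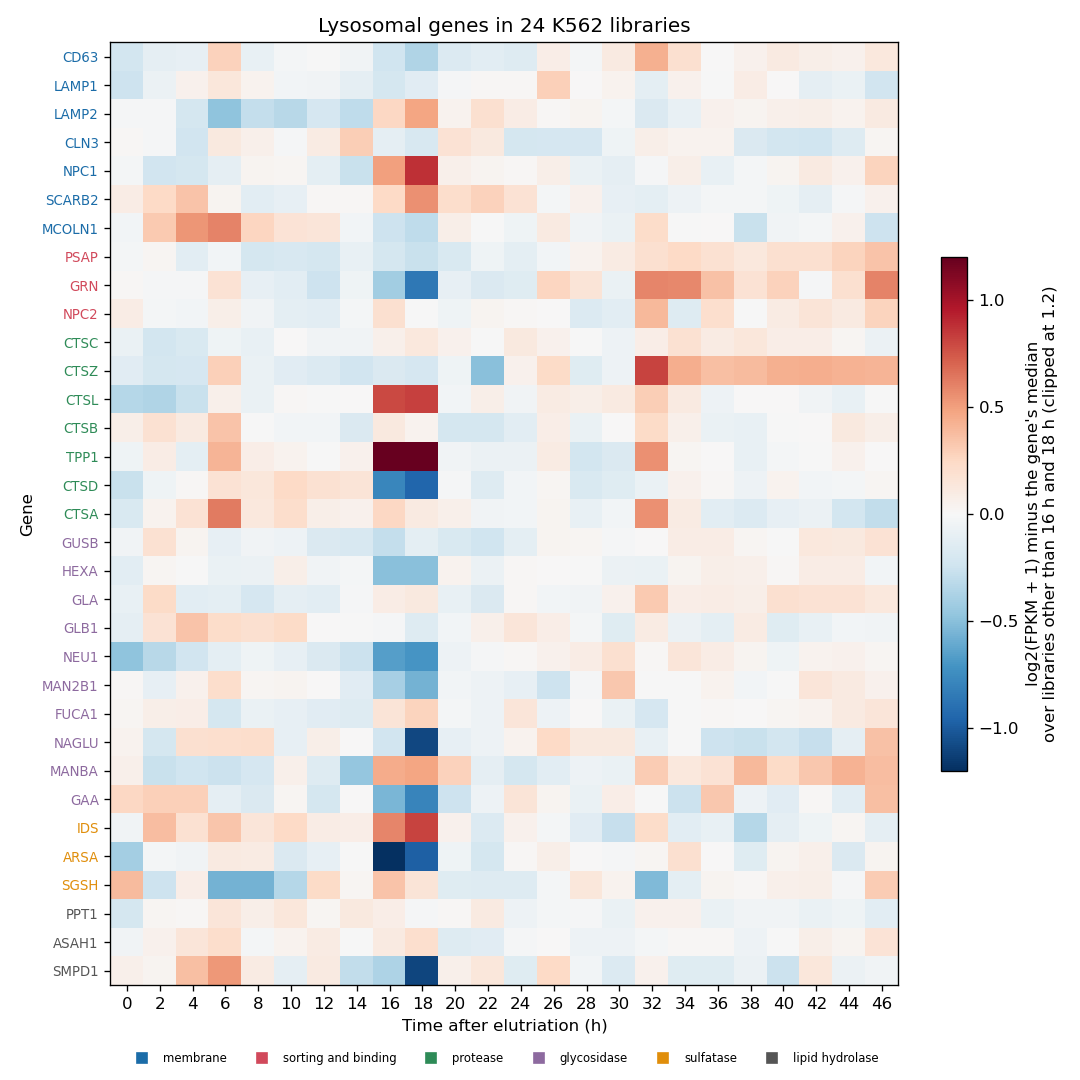
Each row is a gene and each column a library, by hours after elutriation; colour is log2(FPKM + 1) minus the gene's median over the libraries other than 16 h and 18 h, clipped at 1.2, and row label colours give the class. Most cells are pale, the columns at 16 h and 18 h hold both strong red (TPP1, CTSL, NPC1, IDS) and strong blue (CTSD, ARSA, NEU1), and CTSZ, PSAP and GRN turn red in the later columns.

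The libraries at 16 h and 18 h stood apart from the rest. The study names both as irregular time points (STRIPEs, sudden shifts of a whole sample against its neighbours). Among all genes, 102 and 115 were at 0 there, against 58 at 32 h, 35 at 6 h and 4 to 27 in the others. The summed FPKM of 11 K562 markers, most of it from globins, was 2591 FPKM at 16 h and 2250 FPKM at 18 h, against 3925 to 7831 FPKM in the other libraries. Not all of these markers were low there. Measured against their neighbours in time, 7 of the 11 (the globins, GATA1, KLF1 and EPOR) were below the range they had at other time points, ALAS2, NFE2 and TAL1 were inside it, and TFRC, the transferrin receptor, was above it, at 295.2 and 299.8 FPKM. Slopes and rhythms of the called members below are therefore given with and without 16 h and 18 h. In a bulk sample, fewer cells of a type and less RNA per cell cannot be told apart. Why some of these markers were low at 16 h and 18 h was not tested.

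The first comparison asked which members drifted over the 46 h, as a slope on log2(FPKM + 1) per 24 h fitted beside a 24 h cosine. The members that rose were CTSZ, GRN, NEU1, PSAP, CD63 and GUSB, and those that fell were IDS and SCARB2 (limma, Benjamini-Hochberg adjusted p of 0.05 or below over 12253 genes). These 6 of 33 risen members (18.2%) stand against 13.4% of all genes tested, and the 2 fallen members (6.06%) against 8.82%, so neither share was far from the background. The median slope was 0.072 over the members and -0.0061 over all genes. Libraries came from a single time series and follow each other in time, so p-values measure the scatter of these libraries around the fitted curve.

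CTSZ, cathepsin Z, a carboxypeptidase, had the largest rise. It was lowest at 48.4 FPKM (22 h), had a median of 66.0 FPKM, and was highest at 121.6 FPKM (32 h). In the first 6 libraries (0 h to 10 h) it averaged 65.4 ± 9.33 FPKM (SD, n = 6 time points) and in the last 6 (36 h to 46 h) 91.1 ± 1.75 FPKM, and these ranges, 59.3 to 84.0 and 88.6 to 92.9 FPKM, did not overlap. The change was not gradual: all libraries from 0 h to 30 h were at or below 84.0 FPKM and all from 32 h on were at or above 88.6 FPKM. The slope was 0.43 ± 0.084 (SE) per 24 h, a 1.34-fold rise on the log2(FPKM + 1) scale, with a limma adjusted p of 8.07e-04, and 0.41 without 16 h and 18 h.

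GRN, progranulin, a secreted and lysosomal glycoprotein that binds prosaposin, ran from 11.3 FPKM (18 h) through a median of 21.1 FPKM to 32.8 FPKM (46 h). It averaged 21.2 ± 1.67 FPKM over the first 6 time points and 26.0 ± 3.95 FPKM over the last 6 (SD), with overlapping ranges of 19.4 to 24.2 and 21.1 to 32.8 FPKM. Its slope was 0.40 ± 0.089 per 24 h (limma adjusted p = 0.00220), and 0.32 without 16 h and 18 h (adjusted p = 0.00291, limma).

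NEU1, the lysosomal sialidase, climbed early, from 19.9 FPKM at 0 h to 27.4 FPKM at 8 h, fell to 16.9 FPKM at 18 h, its lowest value, and stayed between 27.2 and 32.5 FPKM from 20 h on, with a median of 27.7 FPKM over all libraries. All libraries from 20 h on were thus above all of those from 12 h to 18 h. The slope was 0.34 ± 0.056 per 24 h, a 1.26-fold rise, with a limma adjusted p of 1.45e-04, and 0.26 without 16 h and 18 h. PSAP rose from 203.8 ± 13.8 FPKM over the first 6 time points to 252.9 ± 13.7 FPKM over the last 6 (SD), and these ranges, 187.6 to 220.2 and 236.8 to 276.0 FPKM, did not overlap. Its slope was 0.27 ± 0.046 per 24 h (limma adjusted p = 1.77e-04), and 0.25 without 16 h and 18 h.

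CD63 averaged 227.6 ± 28.2 FPKM at first and 244.2 ± 7.28 FPKM at the end (SD, 6 time points each), and the first range, 200.3 to 281.9 FPKM, enclosed the last. Its slope was 0.20 ± 0.048 per 24 h (limma adjusted p = 0.00465), and 0.17 without 16 h and 18 h. For these 5 genes the call held in all 24 fits that each left out 1 library. GUSB, the sixth, had a smaller slope of 0.13 ± 0.045 per 24 h (limma adjusted p = 0.0373), and 0.12 without 16 h and 18 h (adjusted p = 0.0466, limma). It kept the call in 13 of those 24 fits, and lost it without 6, 12, 14, 16, 34, 36, 38, 40, 42, 44 or 46 h (limma adjusted p up to 0.0888). In a limma fit of a straight line alone, without the cosine, GRN (slope 0.28, adjusted p = 0.0501), CD63 (0.13, adjusted p = 0.125) and GUSB (0.092, adjusted p = 0.179) no longer passed.

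IDS, iduronate 2-sulfatase, which starts the breakdown of heparan and dermatan sulfate, had the largest called fall. It ran from 3.85 FPKM (38 h) through a median of 5.32 FPKM to 9.79 FPKM (18 h). The first 6 time points averaged 6.14 ± 0.713 FPKM and the last 6 averaged 4.71 ± 0.465 FPKM (SD), with ranges of 5.0 to 6.98 and 3.85 to 5.25 FPKM that overlapped. The slope was -0.29 ± 0.085 per 24 h (limma adjusted p = 0.0158) and was smaller, at -0.19, without 16 h and 18 h (adjusted p = 0.0279, limma). The call held in all 24 fits that left out 1 library.

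SCARB2, the receptor that carries glucocerebrosidase to the lysosome, ran from 8.13 FPKM (8 h) through 9.03 FPKM (median) to 13.6 FPKM (18 h). Its slope of -0.16 ± 0.053 per 24 h (limma adjusted p = 0.0375) became -0.11 without 16 h and 18 h and no longer passed (adjusted p = 0.0634). The call of SCARB2 was also lost without 2, 4, 16, 26, 30, 40, 42, 44 or 46 h alone, with a straight line alone (slope -0.11, limma adjusted p = 0.214) and with upper-quartile scaling (-0.12, limma adjusted p = 0.0569). IDS has a nearly identical pseudogene copy and GUSB several, and how reads shared with them were counted is not given in the sources used here.

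**Figure D2:**
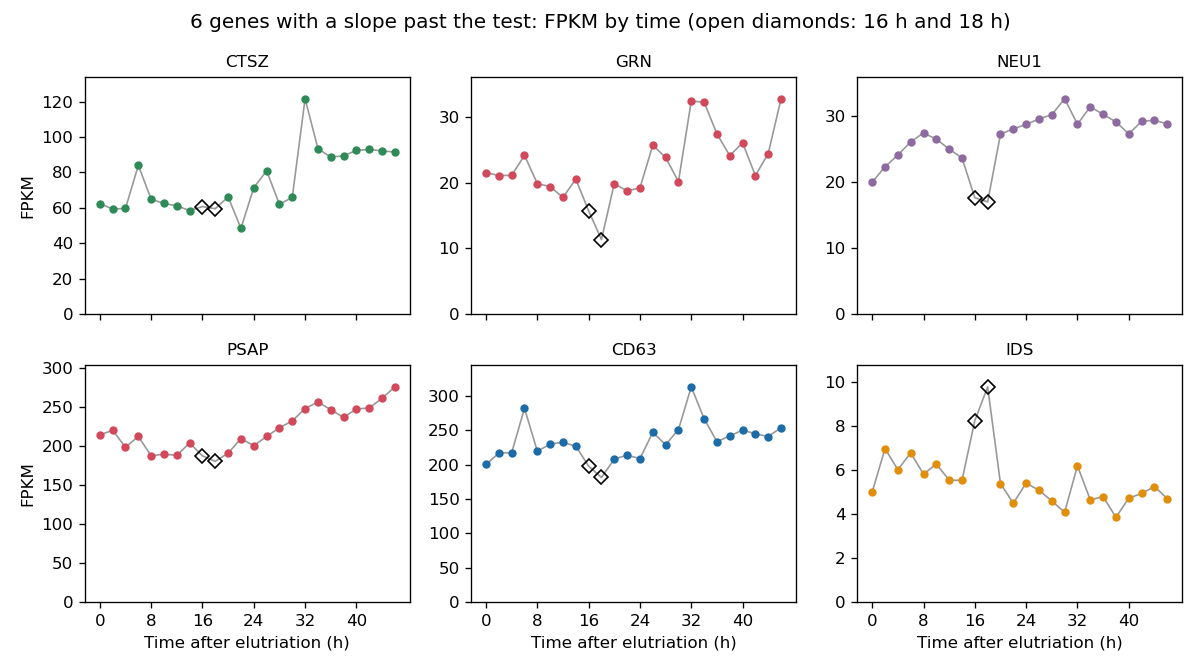
FPKM against hours after elutriation for CTSZ, GRN, NEU1, PSAP, CD63 and IDS, each point 1 library, with 16 h and 18 h as open diamonds and each axis starting at 0. CTSZ steps from at most 84.0 FPKM before 32 h to at least 88.6 FPKM after it, PSAP climbs to 276.0 FPKM, and IDS is highest at the diamonds.

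Without 16 h and 18 h, 12 members rose (19.5% of all genes did) and 2 fell (12.5% of all genes). These counts depended on the setting: with median centring as well 7 rose and 5 fell, and without 6, 16, 18 and 32 h 9 rose and 3 fell. The 12 held all 6 named above, joined by LAMP2, CTSL, NPC1, CTSC, GLA and MANBA. CTSL, cathepsin L, an endopeptidase, is an example: its slope was 0.0041 ± 0.099 over 24 libraries and 0.16 ± 0.048 (SE, limma adjusted p = 0.0124) over the other 22. MANBA, beta-mannosidase, went from 0.20 to 0.27 per 24 h (limma adjusted p = 0.00694 without 16 h and 18 h). MCOLN1 joined IDS among the fallen, with a slope of -0.18 ± 0.065 (limma adjusted p = 0.0427). The slope of TPP1 was -0.38 ± 0.22 with all libraries and -0.00052 without 16 h and 18 h.

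Over all 33 members, 22 slopes were above 0 and 11 below, and 12 members were at an unadjusted p of 0.05 or below (limma). The shares of all genes by these rules are not given, so neither count is read as a trait of the members. By class, the risen genes were 1 of 7 membrane proteins (CD63), 2 of 3 sorting and binding proteins (PSAP and GRN), 1 of 7 proteases (CTSZ) and 2 of 10 glycosidases (NEU1 and GUSB). The fallen genes were 1 of 7 membrane proteins (SCARB2) and 1 of 3 sulfatases (IDS). None of the 3 lipid hydrolases passed in this limma fit. Of the 5 members with TCACGTGA in their promoter window, none passed over 24 libraries, and MCOLN1 passed, as fallen, without 16 h and 18 h.

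The few markers of other cell types that were tested moved in the same direction as the risen members. Of 9 monocyte and macrophage markers 3 were analysed (CD68, LYZ and AIF1), and all 3 rose. Their summed FPKM averaged 18.97 FPKM over the first 6 time points and 47.6 FPKM over the last 6. Of 6 lymphoid markers only 1 was tested, CD3D (mean 7.05 FPKM), and of 6 fibroblast markers only 1, COL1A2 (mean 2.93 FPKM). They also rose, by 0.61 and 0.33 per 24 h. CD14, CSF1R, MRC1, FCGR1A, ITGAM and CD163 were not among the genes of the table, which lists genes at 1 FPKM or more in at least 12 time points. Nor were CD3E, MS4A1, CD79A and CD2, or the fibroblast markers other than COL1A2. Few or single genes thus stand for these cell types. The part of other cells in the rise of the members was not tested.

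**Figure D3:**
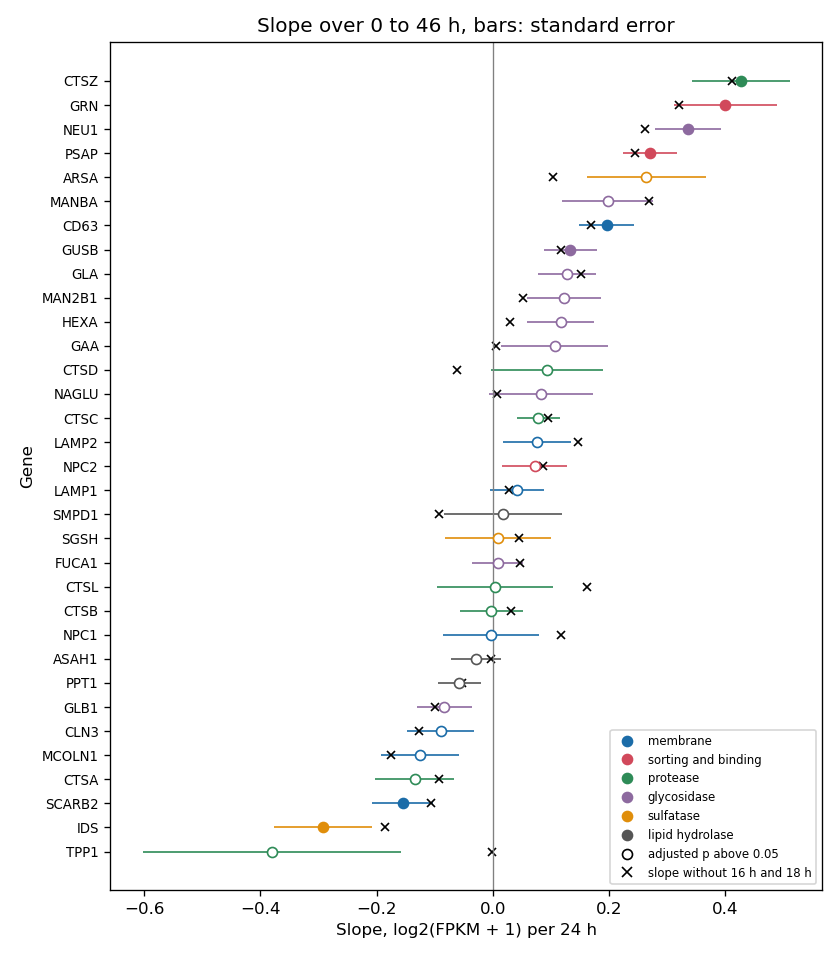
Slope in log2(FPKM + 1) per 24 h for each of the 33 genes, with the standard error as bars, class by colour, filled circles for an adjusted p of 0.05 or below, and crosses for the slope without 16 h and 18 h. The 6 filled circles on the right run from 0.13 (GUSB) to 0.43 (CTSZ), the filled ones on the left are SCARB2 and IDS, and the cross of TPP1 is near 0 while its circle is at -0.38.

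The second comparison asked which members followed a rhythm of 24 h, the cycle length that the study assumes. By the JTK statistic (the best rank agreement with a cosine over 12 phases, p from 100000 random orderings of the time points, adjusted over all genes tested), 4 of 33 members passed, or 12.1% against 13% of all genes. They were LAMP2, NAGLU, FUCA1 and MANBA. Random orderings take no account of drift or of likeness between neighbouring libraries, so these p-values carry that limit.

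LAMP2, a heavily glycosylated protein of the lysosomal membrane that also serves chaperone-mediated autophagy, had its best match with a peak at 20 h (permutation adjusted p = 0.0146). Its values ran from 20.99 FPKM at 6 h through a median of 30.1 FPKM to 41.5 FPKM at 18 h. The fitted cosine had a peak 1.29 times its trough, on the log2(FPKM + 1) scale over all 24 libraries. LAMP2 was low from 4 h to 14 h, at 20.99 to 25.8 FPKM, and at or above 26.2 FPKM in all other libraries. From 28 h to 38 h, a period of 24 h later, it was at 26.2 to 30.8 FPKM, all above its values from 4 h to 14 h. Without 16 h and 18 h it still passed, at a permutation adjusted p of 0.0253.

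NAGLU, the N-acetylglucosaminidase of heparan sulfate breakdown, was best matched by a peak at 4 h (permutation adjusted p = 0.0193), with 2.80 FPKM at 18 h as its lowest value, a median of 6.91 FPKM and 9.33 FPKM at 46 h as its highest. The peak of its cosine was 1.43 times the trough, on the log2(FPKM + 1) scale over all 24 libraries. Without 16 h and 18 h it passed at an adjusted p of 0.0459 (permutation). NAGLU and LAMP2 kept the call in all 24 analyses that left out 1 library. With 16 h and 18 h replaced by interpolated values NAGLU was at an adjusted p of 0.0532 (permutation), and with a period of 28 h at 0.333, while LAMP2 lost its call at a period of 20 h (0.237).

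FUCA1, alpha-fucosidase, with 7.01 to 10.2 FPKM (median 8.27 FPKM) and a best peak at 20 h, passed at 0.0412, and MANBA, with 3.0 to 6.65 FPKM (median 4.74 FPKM) and a best peak at 18 h, at 0.0490 (permutation, adjusted). Both were highest at 18 h, and neither passed without 16 h and 18 h, at adjusted p of 0.0637 and 0.153 (permutation). Nor did FUCA1 or MANBA pass after a straight line was removed, at 0.0739 and 0.154 (permutation, adjusted). LAMP2 and NAGLU did, at 0.0241 and 0.0438 (permutation, adjusted). FUCA1 passed in 10 of the 24 analyses that left out 1 library and failed without 0, 6, 8, 10, 18, 24, 26, 28, 30, 32, 38, 40, 44 or 46 h. MANBA passed in 8 of them, those without 2, 12, 14, 22, 24, 28, 30 or 32 h. Without 16 h and 18 h 3 members passed (14.7% of all genes did): LAMP2, NAGLU and CTSA, the last at an adjusted p of 0.0336 (permutation). A limma F test of the cosine terms called 5 members (15.2%), of which only LAMP2 had passed by JTK. They were NEU1, CD63, LAMP2, SCARB2 and GRN (limma adjusted p of 0.0208, 0.0247, 0.0305, 0.0484 and 0.0488). NAGLU, FUCA1 and MANBA did not pass it (limma adjusted p of 0.0529, 0.092 and 0.149). The share of all genes by this F test is not given.

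The third description concerns 16 h and 18 h themselves. For each gene, a line was drawn from 14 h to 20 h on the log2(FPKM + 1) scale, the distances of these libraries from it were averaged, and set beside the gene's own range of the same measure at 16 other pairs of consecutive time points. With 1 library per time point there was no test. TPP1, CTSL, NPC1 and IDS lay more than 1.5-fold above the line, and ARSA, CTSD, SMPD1 and NAGLU more than 1.5-fold below it. These are 4 of 33 members above (12.1%), against 23.9% of all genes, and 4 below (12.1%), against 16.8% of all genes. By the gene's own range, 10 members were above it (30.3%; all genes 43.6%), 12 below it (36.4%; all genes 28%) and 11 inside it.

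TPP1, tripeptidyl peptidase 1, whose loss causes a neuronal ceroid lipofuscinosis, deviated most. It measured 28.7 FPKM at 14 h, 118.4 FPKM at 16 h, 159.3 FPKM at 18 h and 26.9 FPKM at 20 h, and in the 22 other libraries it ran from 23.6 through 27.7 (median) to 40.8 FPKM. Its deviation was 2.26 on the log2(FPKM + 1) scale, or 4.80-fold, while its own range at other pairs was -0.52 to 0.37. Both values were thus far above every other library, and the neighbours 2 h away were at the usual level.

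CTSL measured 58.2, 101.1, 103.6 and 56.8 FPKM at 14, 16, 18 and 20 h, against 44.9 to 71.6 FPKM (median 58.1 FPKM) in the other libraries, a deviation of 0.82. NPC1, the membrane protein that exports cholesterol from the lysosome, measured 16.4, 28.5, 37.5 and 20.9 FPKM, against 16.4 to 24.4 FPKM elsewhere, a deviation of 0.79. RMC1, which overlaps NPC1 on the opposite strand, averaged 26.6 FPKM at 16 h and 18 h and 23.8 FPKM over all libraries; whether the counting used strand is not given in the sources used here. IDS measured 5.53, 8.25, 9.79 and 5.39 FPKM, a deviation of 0.63. In these 3 genes, as in TPP1, both libraries were above all others.

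CTSD, cathepsin D, the main aspartic protease of the lysosome, went the other way. It measured 41.6, 21.2, 18.8 and 37.0 FPKM at 14, 16, 18 and 20 h, against 30.9 to 44.2 FPKM (median 37.4 FPKM) in the other libraries. Its deviation was -0.94, and its own range elsewhere was -0.14 to 0.17. ARSA had the largest fall from the line on the log2(FPKM + 1) scale, at -1.08, with 4.79, 1.47, 1.94 and 4.58 FPKM and 3.38 to 5.61 FPKM elsewhere. Adding 1 FPKM shrinks the deviations of low genes. GAA, with 1.08, 0.419, 0.197 and 0.747 FPKM at 14, 16, 18 and 20 h, deviated by -0.55 on this scale.

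NAGLU and SMPD1 were low mainly at 18 h. NAGLU measured 7.08, 5.90, 2.80 and 6.54 FPKM and deviated by -0.61, and SMPD1 measured 4.31, 4.06, 2.04 and 5.80 FPKM and deviated by -0.62. At 16 h NAGLU was within the values of the other libraries (5.68 to 9.33 FPKM). HEXA, the steadiest member otherwise, was at 33.7 and 33.8 FPKM at 16 h and 18 h against 44.1 to 51.4 FPKM elsewhere.

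**Figure D4:**
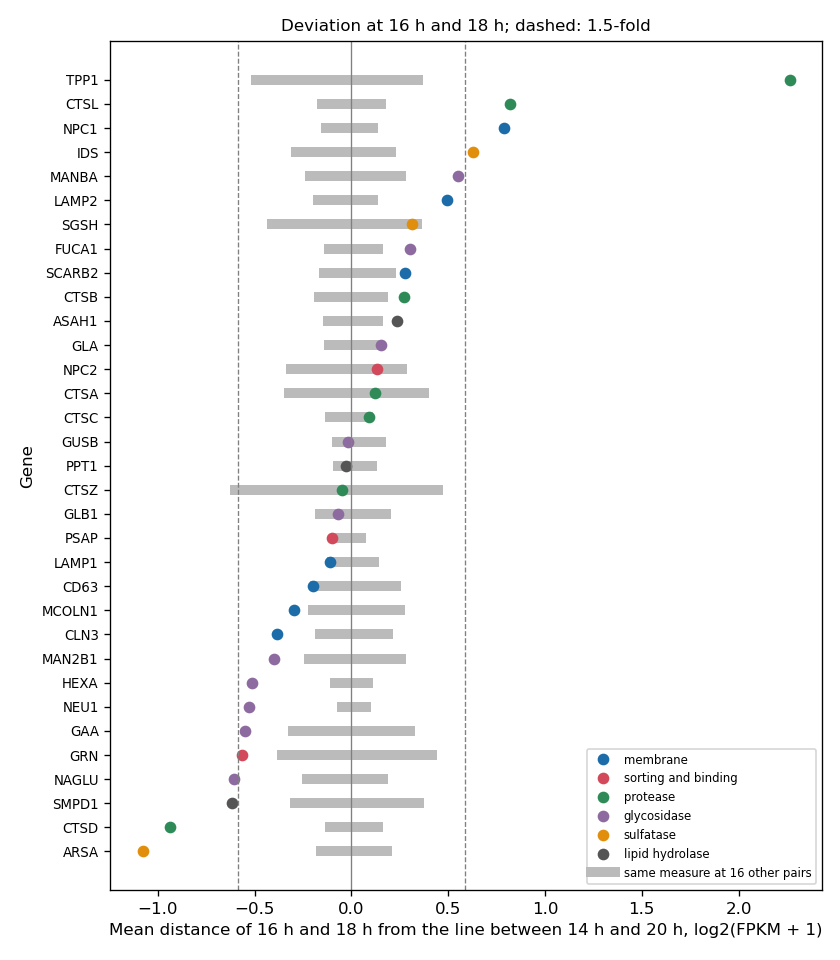
Mean distance of 16 h and 18 h from the line through 14 h and 20 h, in log2(FPKM + 1), as 1 point per gene coloured by class; grey bars give the gene's own range at 16 other pairs of time points and dashed lines mark 1.5-fold. TPP1 stands alone at 2.26, ARSA and CTSD lie lowest at -1.08 and -0.94, and 22 of the 33 points lie outside their grey bar.

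**Figure D5:**
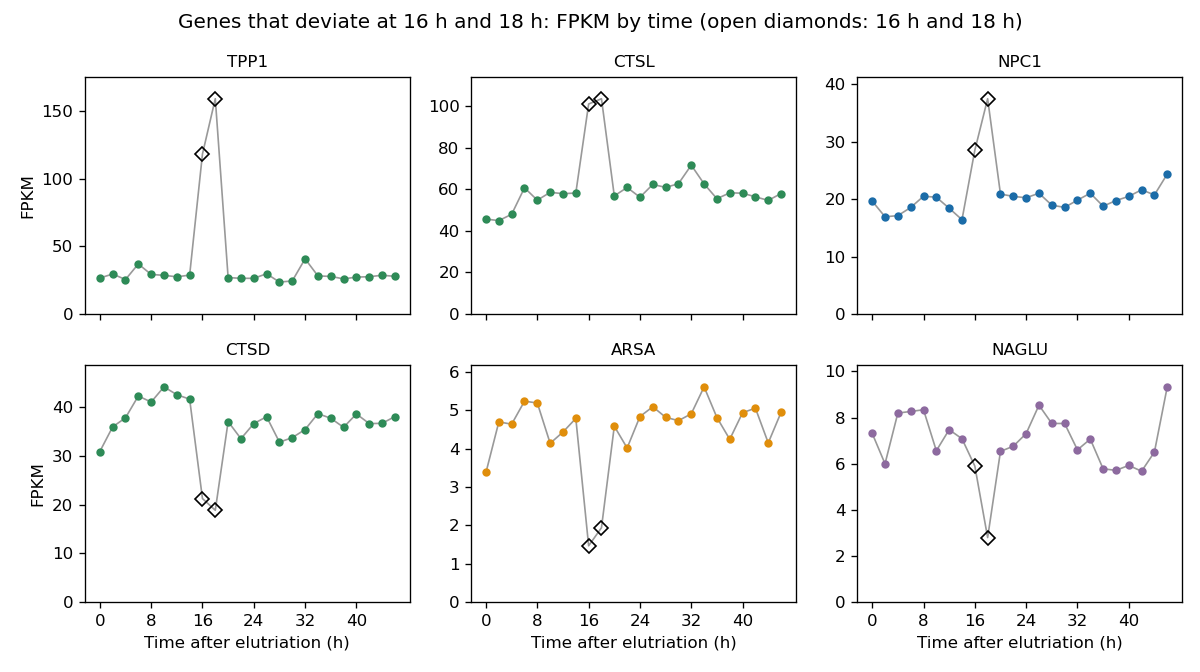
FPKM against hours after elutriation for TPP1, CTSL, NPC1, CTSD, ARSA and NAGLU, each point 1 library, with 16 h and 18 h as open diamonds and each axis starting at 0. The diamonds of TPP1, CTSL and NPC1 are above all other points, and those of CTSD and ARSA below all other points; for NAGLU only the one at 18 h is.

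The classes did not move as blocks. Among the 7 proteases, deviations ran from -0.94 (CTSD) to 2.26 (TPP1), among the 10 glycosidases from -0.61 (NAGLU) to 0.55 (MANBA), and among the 3 sulfatases from -1.08 (ARSA) to 0.63 (IDS). The membrane proteins ran from -0.38 (CLN3) to 0.79 (NPC1), with 3 of 7 above their own range and 2 below. Of the 10 glycosidases 5 were below their own range (HEXA, NEU1, NAGLU, GAA and MAN2B1) and 2 above it (MANBA and FUCA1). GRN and PSAP were below theirs and NPC2, a soluble cholesterol carrier, was inside.

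The size of a deviation depended on the scale. The median over all genes was 0.14 on the values as deposited, and it moved by -0.11 when each library was centred on its median and by -0.20 when libraries were scaled to the same upper quartile. The median over the members was -0.029, below that of all genes, and 21 of 33 members lay below the all-gene median. Under upper-quartile scaling 4 members near 0 (CTSA, CTSC, GLA and NPC2) changed sign and under median centring 1 did (CTSC). With upper-quartile scaling 2 members were past 1.5-fold above and 10 below, in place of 4 and 4 on the deposited scale, and with median centring these were 3 and 8. The shares of all genes past 1.5-fold under these scalings are not given. The all-gene median moved down as well, so these counts are not read as a trait of the members. With a pseudocount of 0.1 in place of 1 on the deposited values, 5 members were past 1.5-fold above and 6 below, and ARSA was at -1.42. The share of all genes under that pseudocount is not given either.

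GC content moved with the deviation. GC content and length were those of each gene's longest annotated transcript, which need not be the one expressed here. Members above their own range had a median GC content of 45.9% (37.3% to 52.8%), and members below it 61.0% (47.0% to 66.0%). Across the 33 members Spearman's rho between deviation and GC content was -0.66, and across all genes with an annotation it was -0.56. With transcript length rho was 0.36 across members and 0.30 across all genes. These are descriptions across genes that share the same libraries, and the part of GC content or length in the deviations was not tested.

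The single libraries at 32 h, which the study names as a mild STRIPE, and at 6 h were also high for several members. Both were singled out here after the values were seen. Against the mean of their neighbours, 10 members were above their own range at 6 h (30.3%; all genes 25.1%) and 11 at 32 h (33.3%; all genes 25.3%). CTSA, CTSZ, CTSB, CTSL, TPP1, CD63 and MCOLN1 were so at both. CTSA measured 45.9 FPKM at 6 h and 43.4 FPKM at 32 h, and 23.7 to 35.1 FPKM in all other libraries. CD63 measured 281.9 and 313.2 FPKM, and at most 266.8 FPKM elsewhere. TPP1, so much higher at 16 h and 18 h, measured 37.0 and 40.8 FPKM there. Across members, the deviation at 32 h followed that at 6 h with a Pearson r of 0.72 (n = 33 genes), and across all genes with 0.69.

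Members did not vary as a group. Over the 528 pairs of members the median Pearson r of log2(FPKM + 1) was 0.052 over 24 libraries and 0.057 over 22 without 16 h and 18 h, and that between members and all other genes was -0.00010 and 0.013. The pairs with the highest r over 24 libraries were CTSD with ARSA (0.88) and HEXA with ARSA (0.87), but without 16 h and 18 h these were 0.41 and 0.15. Of the 528 pairs, 8 reached an r of 0.8 over 24 libraries and 1 over 22. The latter was IDS with MCOLN1, at 0.83 (0.17 over 24 libraries), followed by CTSZ with GRN at 0.80 (0.74 over 24). CTSZ and CD63 were closest to the mean of the other members, with an r of 0.77 and 0.76 over 24 libraries and 0.75 for both over 22. The strongest relation of any pair over 24 libraries was negative, at -0.91 for TPP1 with HEXA, and 4 pairs were at -0.8 or lower. Over 22 libraries TPP1 with HEXA was at -0.25 and no pair was that low. All points share the libraries of a single time series, so no p is given. The shares of all gene pairs past 0.8 or -0.8 are not given, so the counts of pairs are not read as a trait of the members.

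The wider lysosomal pathway was described by lists of genes. The transcription factors TFE3, MITF and TFEB were measured at means of 9.75, 8.29 and 1.02 FPKM, and none of the 3 passed for slope in the limma fit with or without 16 h and 18 h. MITF measured 13.6 and 13.8 FPKM at 16 h and 18 h, against 6.06 to 9.25 FPKM elsewhere. For the counts that follow, 13.4% of all genes rose and 8.82% fell over 24 libraries, and 19.5% and 12.5% without 16 h and 18 h. Of 19 vacuolar ATPase genes 6 rose and 1 fell, and 4 rose and 1 fell without 16 h and 18 h. The largest rise among these was in TCIRG1, a subunit of the membrane sector of the proton pump, by 0.58 ± 0.15 per 24 h (SE, limma adjusted p = 0.00769). Without 16 h and 18 h its slope was 0.33, and it measured 11.8 and 12.6 FPKM at 16 h and 18 h against 28.9 to 50.7 FPKM elsewhere. ATP6V1D and ATP6V1A, subunits of the cytosolic sector, both rose by 0.16.

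Of 9 genes of mannose 6-phosphate tagging and sorting 2 rose and none fell, with or without 16 h and 18 h. These were GGA1, an adaptor at the trans-Golgi network, by 0.31 ± 0.058 per 24 h (limma adjusted p = 4.50e-04), and IGF2R, the cation-independent mannose 6-phosphate receptor, by 0.19 ± 0.061 (adjusted p = 0.0256). Of 23 genes of the Rag GTPases, Ragulator and mTORC1, which sense amino acids at the lysosomal surface, none rose and 2 fell: RRAGC with a slope of -0.20 and LAMTOR3 with -0.27 per 24 h. Without 16 h and 18 h 5 fell and none rose, and the slope of LAMTOR3 was -0.12. LAMTOR3 measured 69.9 and 90.02 FPKM at 16 h and 18 h against 36.3 to 47.1 FPKM in the other libraries.

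Of 31 autophagy genes 6 rose and none fell over 24 libraries, and 8 rose and 2 fell without 16 h and 18 h. WIPI1, which binds phosphoinositides on the forming autophagosome, rose by 0.57 ± 0.073 (limma adjusted p = 6.39e-06), OPTN, an autophagy receptor, by 0.48, and GABARAPL1, an ATG8 family protein, by 0.61. Of 40 other lysosomal enzymes and membrane proteins 8 rose over 24 libraries, and 14 rose and 2 fell without 16 h and 18 h. CTSS, a cysteine protease, rose by 0.64, CTSH, an aminopeptidase, by 0.27, and LAPTM5, a membrane protein of blood cell lysosomes, by 0.78. CD68, counted above among the macrophage markers, is also in this list. The median slopes of the lists lay between -0.090 (Rag, Ragulator and mTORC1) and 0.050 (mannose 6-phosphate tagging and sorting), beside 0.072 for the 33 members.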

How the data were processed

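RNA-seq of 24 K562 libraries was analysed, 1 per time point, assigned by the sample labels. Per the labels and the methods, the authors aligned reads with STAR and made FPKM values with Cufflinks and Cuffnorm on GRCh37. Versions were not given in the sources used here. A second deposited table holds a score per gene and time point, the authors' cleaned version, in which all columns hold the same sorted values. It was used only as an alternative.

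The table lists genes at 1 FPKM or more in at least 12 time points. Whole reads could not be recovered from the FPKM steps (at most 2.6% of ratios of 655 genes fell in any 0.5% window), so depth is unknown, no counting error can be given and no count model was used. No column was left unused.

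Genes averaging 1 FPKM or more were tested on log2(FPKM + 1). Slopes were fitted with limma 3.58.1 in R 4.3.3 (lmFit, eBayes with trend) with 24 h cosine and sine terms, over all 12253 genes with Benjamini-Hochberg adjustment. Rhythms were tested with the JTK statistic over 12 phases with 100000 permutations, in Python 3.11.15 with numpy 2.4.6. Calls were made at an adjusted p of 0.05 or below. Both were run on simulated data, with independent normal noise and with slopes or cosines added to some genes. Those data held no likeness between neighbouring libraries and no irregular time points, so they do not cover these features of the real series. The deviation at 16 h and 18 h is a description. Symbols came from the gene table supplied with the identifiers, and promoter windows from RefSeq (GRCh38.p14). Overlaps came from GENCODE 29 (GRCh38), as did GC content and length, taken from the longest transcript of each gene. No coordinates were converted.

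Named in full were the 3 members with the highest and lowest means, up to 5 called in each direction for slope and 5 for rhythm, the 4 largest deviations each way and the 2 pairs with the highest r. Lists give up to 3 called genes by lowest p. Others were named after their values were seen. The members, lists and rules were chosen with earlier results of these data known. From these lists 2 genes, 1 K562 marker and 1 other lysosomal gene, are not reported here, for a reason unrelated to their values, and the sums and counts of these lists leave them out.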

Additional observations from a re-analysis of the deposited data

How the results depend on the processing

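Over 24 libraries 6 members rose, 2 fell, 4 passed for rhythm, and 4 lay above and 4 below the line at 16 h and 18 h. The number risen became 12 without 16 h and 18 h, 10 with upper-quartile scaling as well and 7 with median centring as well. It was 9 without 6, 16, 18 and 32 h. The number fallen became 1 with upper-quartile scaling, 4 in the cleaned table, and 5 with median centring without 16 h and 18 h. Leaving out 1 library at a time gave 5 to 7 risen, 1 to 3 fallen and 2 to 5 rhythmic members. The number rhythmic was 1 at a period of 20 h, 1 at 28 h, 2 after interpolation of 16 h and 18 h, and 1 without 6, 16, 18 and 32 h. The limma F test of the cosine terms called 5 members in place of 4, with only LAMP2 in common. The number past the line was 1 above and 1 below at a 2-fold threshold, 8 below with median centring, and 2 above and 10 below with upper-quartile scaling. The shares of all genes under these settings were not set beside the counts. At 6 h, 6 members in place of 10 were above their own range with upper-quartile scaling. The remaining counts, with the other pseudocounts, filters and fits, stayed within 1.5 times of the first ones, the median of the member means and the median r moved by less than the spread, and the 8 called slopes and the 8 deviations past 1.5-fold kept their sign under the alternatives run for each. The causes were not tested. The alternatives without 6, 16, 18 and 32 h, those that combined scaling with leaving out 16 h and 18 h, and those for 6 h and 32 h were chosen after seeing the data. No paired analysis was possible because there is 1 group with 1 library per time point. With unknown depth, low members such as GAA and SGSH cannot be given a counting error.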
